A study of Mus musculus with 4 samples.

Results

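The transcripts described here belong to 10 genes of bone-forming cells and of the stromal niche of the marrow, out of 55399 genes in the count table. They were chosen by name: Bglap, Bglap2, Col1a1, Col1a2, Sparc, Spp1, Ibsp, Cxcl12, Lepr and Kitl. All 10 were found in the table, and all 10 passed the filter on low counts. Bulk RNA-seq had been performed on mouse bone marrow cells labelled Lsk, the name usually given to lineage-negative, Sca-1-positive, Kit-positive stem and progenitor cells. There were 4 libraries, 2 from Ppm1bfl/fl mice, whose Ppm1b alleles carry loxP sites, and 2 from Ppm1bCKO mice, the conditional knockout. No treatment was given in the labels. The sources used here do not give the Cre driver, the sorting gates, or the strain, age and sex of the mice. The labels leave unsaid whether each replicate was its own mouse, so a p-value reflects only how much these particular libraries vary, which may be technical.

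Bone is laid down by osteoblasts, which secrete a matrix made mostly of type I collagen and then mineralise it with the help of acidic glycoproteins. Osteocalcin appears late in this sequence, when the cells are mature. The same mesenchymal lineage also yields the perivascular stromal cells that carry the leptin receptor and supply blood stem cells with the chemokine CXCL12 and with stem cell factor, the ligand of the receptor Kit. Neither kind of cell is part of the Lsk fraction as it is usually defined.

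The osteocalcin genes Bglap and Bglap2 are near copies of each other, and the letters that tell their reads apart are few. The coding sequences (GENCODE transcripts, GRCm38, minus strand of chromosome 3; chr3:88383635-88384415 for Bglap and chr3:88377870-88378650 for Bglap2) are shown because they set how well the counts of these genes can be separated. Each is 288 bases long, joined from 4 exons, and capitals mark the 4 bases that differ.
Bglap: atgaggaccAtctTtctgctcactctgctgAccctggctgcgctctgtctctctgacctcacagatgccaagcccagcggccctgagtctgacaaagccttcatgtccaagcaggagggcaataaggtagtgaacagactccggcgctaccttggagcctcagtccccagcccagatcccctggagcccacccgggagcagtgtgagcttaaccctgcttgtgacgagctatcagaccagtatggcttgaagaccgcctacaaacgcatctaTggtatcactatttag
Bglap2: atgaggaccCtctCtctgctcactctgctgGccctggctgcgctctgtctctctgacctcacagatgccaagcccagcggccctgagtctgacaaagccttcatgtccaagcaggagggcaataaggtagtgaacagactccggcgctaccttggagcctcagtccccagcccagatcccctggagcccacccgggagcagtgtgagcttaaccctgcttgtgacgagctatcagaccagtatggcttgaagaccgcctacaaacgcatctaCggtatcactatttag
The differences are A10C, T14C, A31G and T273C, with the base of Bglap first and positions counted from 1 at the A of the start codon. The coding sequences are 98.6% identical, and the longest stretch without a difference is 241 bases. Of the 100-base windows of the 440-base Bglap transcript, untranslated ends included, 56.3% also occur letter for letter in Bglap2. The sources used here give neither the read length nor how multiply matching reads were counted, so the split of reads between these genes is uncertain. The third copy, Bglap3, had 1 count in Ppm1bCKO replicate 2 and 0 in the other libraries.

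Osteoblast genes are known targets of the transcription factor RUNX2, and the core of its binding motif, ACCACA, was searched on both strands in the 250 bases before each gene's start (RefSeq, GRCm38.p6). Windows were found for 8 of the 10 genes, all but Bglap2 and Col1a1. These genes had 10 windows in all, and the motif was present in 2 of the 10, one each of Bglap and Spp1, and in 14.0% of all 32851 windows. These windows are shown, with the motif in capitals, because they are the ones that hold it. A further Spp1 window and a further Lepr window held no match. The Bglap window is chr3:88384467-88384716 on the minus strand and the Spp1 window is chr5:104434861-104435110 on the plus strand.
Bglap: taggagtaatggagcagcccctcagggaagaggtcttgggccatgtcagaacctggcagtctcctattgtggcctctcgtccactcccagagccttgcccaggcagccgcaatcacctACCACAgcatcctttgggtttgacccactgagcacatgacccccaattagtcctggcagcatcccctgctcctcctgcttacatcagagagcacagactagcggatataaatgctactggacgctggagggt
Spp1: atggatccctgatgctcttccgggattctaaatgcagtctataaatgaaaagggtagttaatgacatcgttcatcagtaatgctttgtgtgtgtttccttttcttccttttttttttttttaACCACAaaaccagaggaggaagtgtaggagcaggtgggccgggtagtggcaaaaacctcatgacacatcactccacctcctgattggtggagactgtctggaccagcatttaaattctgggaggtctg
The motif begins 132 bases before the start of Bglap and 128 bases before that of Spp1. A match of these letters is a description of the window and not a measured binding site.

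Total counts ran from 22393973 to 30045382 per library, so a gene at 0 could still have had up to 3 counts, which is 0.0998 to 0.134 CPM, the count scaled to a fixed library total. Such limits, and the intervals of single counts and ratios given here, cover counting error only, since PCR copies of a molecule cannot be told from separate molecules. Of 16393 tested genes, 61 (0.372%) passed an edgeR adjusted p of 0.05, 10 higher (0.061%) and 51 lower (0.311%) in Ppm1bCKO. Ppm1b itself measured 80.8 and 82.5 CPM in the floxed controls against 84.3 and 121 CPM where the label was Ppm1bCKO. This gene-level count does not show the deletion, so each direction rests on the labels. All 10 stem and progenitor markers were detected, among them Kit at 121 to 228 CPM.

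Osteocalcin transcripts were more abundant in both libraries labelled Ppm1bCKO than in either Ppm1bfl/fl library, but the difference did not pass the test over all genes. Sparc, the osteonectin gene, was likewise higher in both Ppm1bCKO libraries and did not pass. The osteocalcin, collagen and osteonectin transcripts were all lowest in the same library, Ppm1bfl/fl replicate 1, while Cxcl12, Lepr and Kitl were highest there. The mean levels of Spp1 and Ibsp were close between the genotypes. Over the 10 genes, edgeR called 0 at an adjusted p of 0.05, against 0.372% of all tested genes. limma-voom also called 0, against 0.305%. DESeq2 called 1, Bglap, which was higher, against 1.21% of all tested genes in either direction and 0.409% higher. With the replicate number as a block edgeR called the same gene, against 1.26% in either direction and 0.433% higher. Without the filter on low counts it called 3, Bglap, Bglap2 and Sparc, against 1.1%. Without Ppm1bfl/fl replicate 2 it called 5, these 3 with Col1a1 and Col1a2, against 1.25%. Leaving out another library gave 0 calls among the 10, against 0.856% without Ppm1bfl/fl replicate 1, 19.4% without Ppm1bCKO replicate 1 and 0.547% without Ppm1bCKO replicate 2. At an unadjusted p under 0.05 edgeR counted 3, Bglap, Bglap2 and Sparc, all higher. By that rule 6.44% of all tested genes passed, 3.23% higher and 3.21% lower. The genotypes did not overlap for 4 of the 10 genes, all higher in Ppm1bCKO, where 41.1% of all tested genes did not overlap, 20.6% higher and 20.6% lower. The median log2 fold change of the 10 genes was 0.40, and that of all tested genes was -0.0032. In RNA from a mixed sample, fewer cells of a type and less RNA per cell cannot be told apart.

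**Figure D1:**
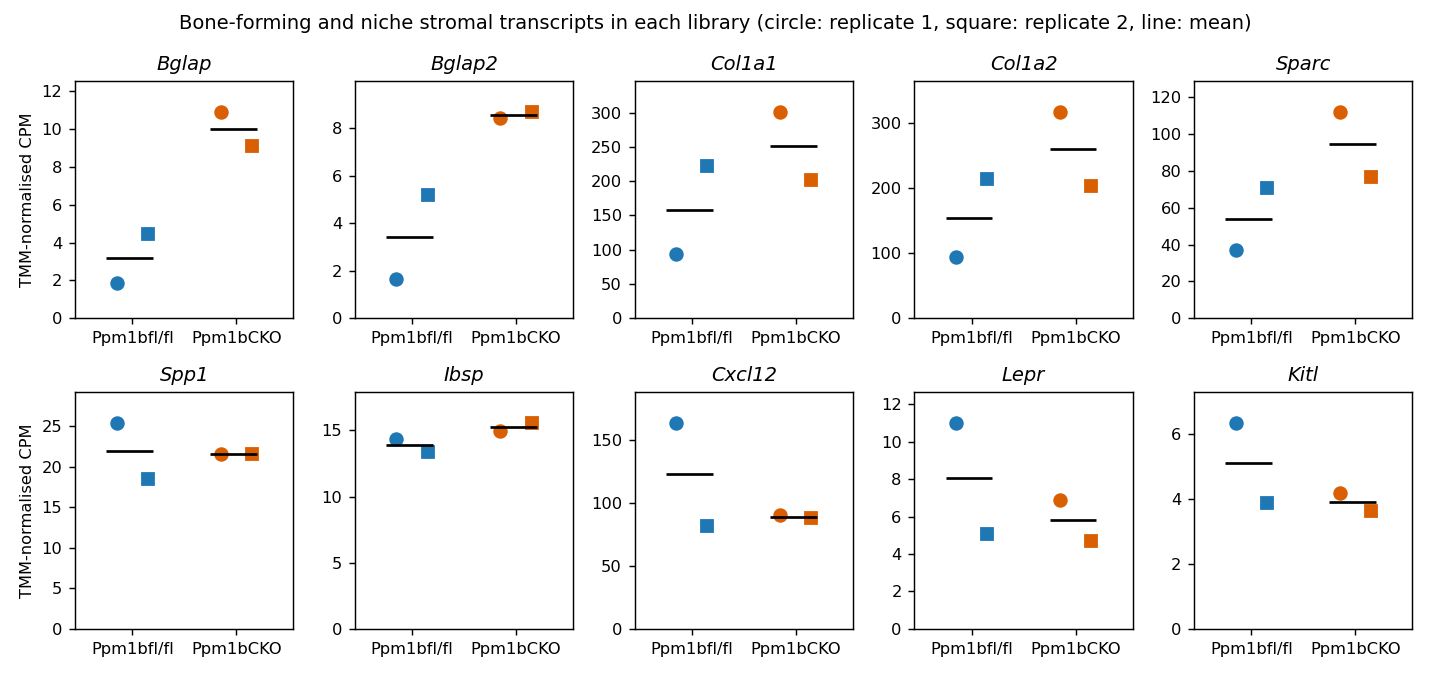
TMM-normalised CPM (vertical axes, each from 0) of the 10 genes in the Ppm1bfl/fl (blue) and Ppm1bCKO (orange) libraries, with circles for replicate 1, squares for replicate 2 and a line at the mean of each genotype. Bglap and Bglap2 lie higher in both Ppm1bCKO libraries, while for Cxcl12 the Ppm1bfl/fl replicate 1 library stands alone at 164 CPM and the other 3 lie between 81.7 and 90.4 CPM.

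Bglap (ENSMUSG00000074483.2, chr3:88383501-88384464, minus strand, mm10) encodes osteocalcin, a small protein of mature osteoblasts that binds calcium in bone mineral. It measured 1.88 and 4.48 CPM in Ppm1bfl/fl replicates 1 and 2, from 50 and 135 counts. In Ppm1bCKO replicates 1 and 2 it stood at 10.9 and 9.10 CPM, from 248 and 216 counts. The genotypes did not overlap, and the lower Ppm1bCKO library lay above the higher Ppm1bfl/fl library by more than the exact Poisson intervals of their counts, 7.93 to 10.4 against 3.75 to 5.30 CPM. The log2 fold change was 1.65 ± 0.39 (SE; 95% interval 0.75 to 2.54), or 3.13-fold, and its edgeR adjusted p was 0.277. DESeq2 gave it an adjusted p of 0.0043. Leaving out Ppm1bfl/fl replicate 1 gave 1.16 on the log2 scale (edgeR adjusted p = 0.418), while leaving out Ppm1bfl/fl replicate 2 gave 2.41 (edgeR adjusted p = 6.54e-05). In the latter fit replicate 1 alone stands for the genotype, and its spread is assumed to be that of the other group.

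Bglap2 (ENSMUSG00000074486.2, chr3:88377736-88378699, minus strand), the neighbouring osteocalcin copy, followed the same order. Its values were 1.65 and 5.21 CPM in Ppm1bfl/fl and 8.44 and 8.68 CPM in Ppm1bCKO. The genotypes did not overlap, yet the Ppm1bfl/fl libraries stood 3.15-fold apart. The log2 fold change was 1.31 ± 0.46 (SE; 95% interval 0.27 to 2.36; edgeR adjusted p = 0.684), and without Ppm1bfl/fl replicate 1 it was 0.71. Because of the shared letters shown above, the counts of the 3 osteocalcin genes were also summed into a single feature. For the sum the log2 fold change came to 1.49 (edgeR adjusted p = 0.416), and it was not called either.

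Type I collagen, the main fibre of bone matrix and also made by fibroblasts, is built from the chains encoded by Col1a1 and Col1a2. Col1a1 (ENSMUSG00000001506.10, chr11:94936224-94953042, plus strand) measured 93.6 and 222 CPM in the Ppm1bfl/fl libraries against 301 and 201 CPM in those of Ppm1bCKO. Col1a2 (ENSMUSG00000029661.16, chr6:4504814-4541544, plus strand) measured 94.2 and 214 CPM in the Ppm1bfl/fl libraries against 317 and 204 CPM in those of Ppm1bCKO. For both genes Ppm1bfl/fl replicate 2 lay above Ppm1bCKO replicate 2, so the genotypes overlapped. The log2 fold changes were 0.67 ± 0.40 (SE; 95% interval -0.28 to 1.62) for Col1a1 and 0.76 ± 0.39 (SE; 95% interval -0.18 to 1.69) for Col1a2, each with an edgeR adjusted p of 0.717. Without Ppm1bfl/fl replicate 1 they were 0.17 and 0.28, and without Ppm1bCKO replicate 1 they were 0.35 and 0.40. When Ppm1bfl/fl replicate 2 was left out they were 1.42 and 1.47, and both passed (edgeR adjusted p = 0.0055 and 0.0036).

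Sparc (ENSMUSG00000018593.13, chr11:55394500-55423183, minus strand) encodes osteonectin, a matrix protein that binds collagen and calcium and is also found in platelets. Its values were 36.9 and 71.0 CPM in Ppm1bfl/fl and 112 and 76.7 CPM in Ppm1bCKO. The genotypes did not overlap, although Ppm1bfl/fl replicate 2 and Ppm1bCKO replicate 2 were close. The log2 fold change was 0.81 ± 0.31 (SE; 95% interval 0.10 to 1.51; edgeR adjusted p = 0.717), and without Ppm1bfl/fl replicate 1 it was 0.41. With Ppm1bfl/fl replicate 2 left out it was 1.36 (edgeR adjusted p = 0.0137). The 13 megakaryocyte and platelet markers summed to 931 CPM in Ppm1bfl/fl replicate 1, where Sparc was lowest, and to 331 CPM in replicate 2. In Ppm1bCKO they summed to 519 and 593 CPM. The platelet share of the Sparc counts was not tested.

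Spp1 and Ibsp encode osteopontin and bone sialoprotein, acidic glycoproteins that bind mineral and integrins, and lie near each other on chromosome 5. Osteopontin is also made by macrophages and osteoclasts. Spp1 (ENSMUSG00000029304.14, chr5:104435118-104441050, plus strand) measured 25.4 and 18.5 CPM in the Ppm1bfl/fl libraries against 21.6 CPM in both Ppm1bCKO libraries, so the Ppm1bCKO values lay between those of Ppm1bfl/fl, which were 1.38-fold apart. Its log2 fold change was -0.02 ± 0.22 (SE; 95% interval -0.52 to 0.47; edgeR adjusted p = 0.978), and without Ppm1bfl/fl replicate 1 it was 0.22. Ibsp (ENSMUSG00000029306.8, chr5:104299171-104311469, plus strand) measured 14.4 and 13.4 CPM in the Ppm1bfl/fl libraries against 15 and 15.6 CPM in those of Ppm1bCKO. The genotypes did not overlap, but the difference was small, with a log2 fold change of 0.14 ± 0.20 (SE; 95% interval -0.33 to 0.60; edgeR adjusted p = 0.836). The upper limits of these intervals correspond to 1.38-fold for Spp1 and 1.52-fold for Ibsp, below the 3.13-fold estimate for Bglap. Whether these genes differ from Bglap in their fold change was not tested.

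Cxcl12, Lepr and Kitl mark the stromal cells that hold and feed blood stem cells. Cxcl12 (ENSMUSG00000061353.11, chr6:117168535-117181367, plus strand), the chemokine that retains stem cells in marrow through CXCR4, measured 164 and 81.7 CPM in the Ppm1bfl/fl libraries against 90.4 and 88.0 CPM in those of Ppm1bCKO. Lepr (ENSMUSG00000057722.17, chr4:101717404-101815352, plus strand), the leptin receptor that marks these stromal cells, measured 11 and 5.07 CPM in the Ppm1bfl/fl libraries against 6.91 and 4.72 CPM in those of Ppm1bCKO. Kitl (ENSMUSG00000019966.18, chr10:100015630-100100416, plus strand), which encodes stem cell factor, measured 6.35 and 3.88 CPM in the Ppm1bfl/fl libraries against 4.18 and 3.62 CPM in those of Ppm1bCKO. In each case Ppm1bfl/fl replicate 1 was the highest library, and the other Ppm1bfl/fl library lay within or below the range of Ppm1bCKO, so the genotypes overlapped.

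The fold changes of the niche genes were negative in the fit of all 4 libraries and turned positive when a single library was left out. For Cxcl12 the log2 fold change was -0.46 ± 0.29 (SE; 95% interval -1.12 to 0.20; edgeR adjusted p = 0.720). Lepr had one of -0.47 ± 0.39 (SE; 95% interval -1.35 to 0.42), and Kitl one of -0.39 ± 0.32 (SE; 95% interval -1.12 to 0.35). Without Ppm1bfl/fl replicate 1 the log2 fold changes were 0.12 for Cxcl12, 0.19 for Lepr and 0.0042 for Kitl. A list of receptors and signalling genes for the proteins of all 10 genes, mostly integrins and collagen receptors, had 0 calls in edgeR among 19 tested, and 1 of them, Cxcr4, had an unadjusted p under 0.05. Cxcr4, the receptor of CXCL12, measured 266 and 290 CPM in the Ppm1bfl/fl libraries against 345 and 385 CPM in those of Ppm1bCKO (log2 fold change 0.39 ± 0.17, edgeR adjusted p = 0.717). Kit, the receptor of stem cell factor, measured 228 and 194 CPM in the Ppm1bfl/fl libraries against 187 and 121 CPM in those of Ppm1bCKO (-0.46 ± 0.22, edgeR adjusted p = 0.717).

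**Figure D2:**
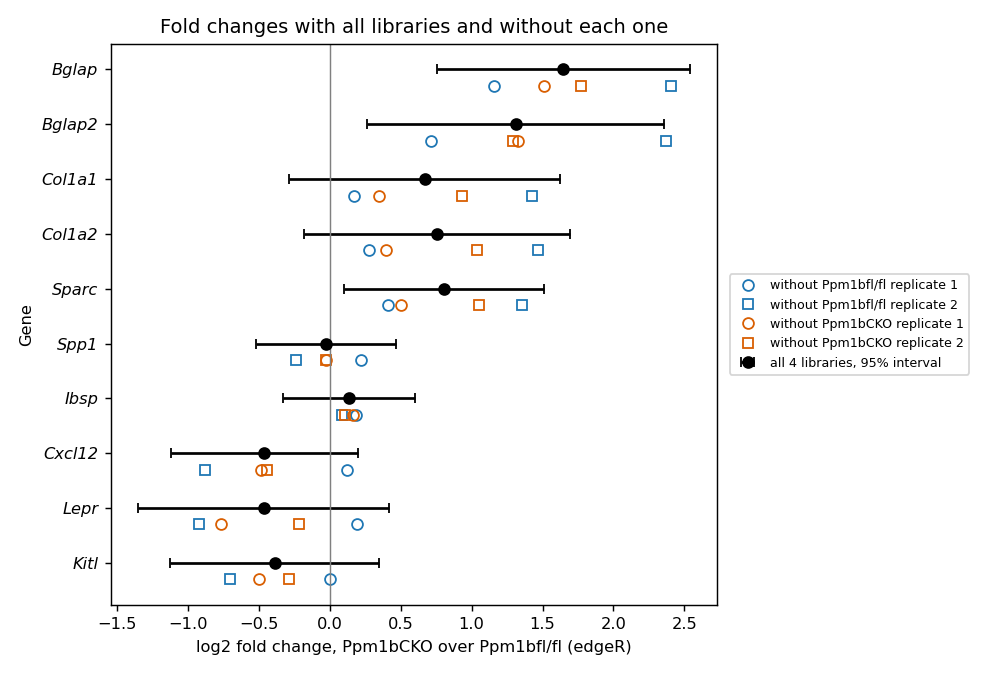
Log2 fold change of each gene, Ppm1bCKO over Ppm1bfl/fl (horizontal axis), from the edgeR fit of all 4 libraries with its 95% interval (black) and from fits without each library (open symbols). Without Ppm1bfl/fl replicate 1 (open blue circles) Bglap stays at 1.16, Col1a1 moves to 0.17 and Cxcl12 crosses 0 to 0.12.

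The spread within Ppm1bfl/fl was as large as the difference between genotypes for most of these genes. From replicate 1 to replicate 2 of Ppm1bfl/fl the level was 2.38 times as high for Bglap, 2.37 times for Col1a1, 2.28 times for Col1a2 and 1.92 times for Sparc. In the opposite direction, replicate 1 was 2.0 times as high as replicate 2 for Cxcl12, 2.17 times for Lepr and 1.64 times for Kitl. Of the 10 genes, 6 were over 2-fold apart between the Ppm1bfl/fl libraries, where 1.81% of 12505 genes of at least 1 average log2 CPM were. Between the Ppm1bCKO libraries 0 of the 10 were, where 3.43% of those genes were. The Ppm1bCKO libraries differed most for Col1a2, which was 1.55 times as high in replicate 1, and least for Spp1.

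**Figure D3:**
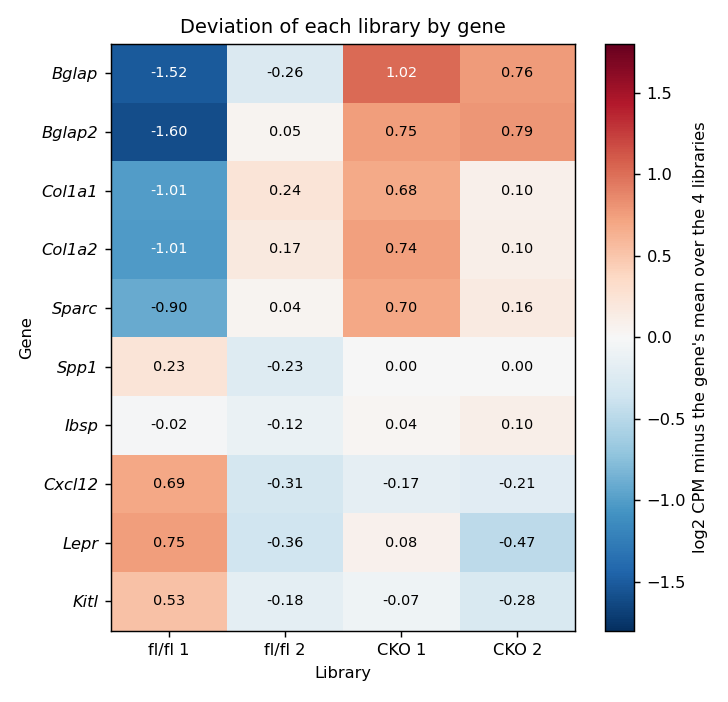
Log2 CPM of each gene (rows) in each library (columns) minus that gene's mean over the 4 libraries, with red above and blue below the mean. Ppm1bfl/fl replicate 1 lies between 0.90 and 1.6 log2 units below the mean for the osteocalcin, collagen and osteonectin genes and between 0.53 and 0.75 above it for Cxcl12, Lepr and Kitl.

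Levels can be compared between genes only per length, so CPM were divided by the exonic length in the deposited table, which gives FPKM, and averaged over the 2 libraries of a genotype. In Ppm1bCKO the order by mean FPKM was Col1a1 (38.3), Sparc (24.9), Col1a2 (20.9), Bglap2 (18.2), Bglap (16.2), Spp1 (13.1), Cxcl12 (10.9), Ibsp (7.39), Lepr (0.825) and Kitl (0.66). In that order the libraries of neighbours overlapped for Sparc and Col1a2, Col1a2 and Bglap2, and Lepr and Kitl. In Ppm1bfl/fl the order was Col1a1 (24.1), Cxcl12 (15), Sparc (14.2), Spp1 (13.3), Col1a2 (12.4), Bglap2 (7.28), Ibsp (6.71), Bglap (5.14), Lepr (1.14) and Kitl (0.865). There the neighbours overlapped at every step except between Bglap and Lepr. Lepr and Kitl were thus the lowest of the 10 per length in both genotypes. Col1a2 has an annotated exonic length of 12426 bases against 6563 for Col1a1, which lowers its FPKM relative to its counts. The lengths used were 618 bases for Bglap and 471 for Bglap2. In Ppm1bCKO Bglap had more counts than Bglap2, 248 against 192 in replicate 1 and 216 against 206 in replicate 2. Their order there thus rests on these lengths and on an uncertain split of reads.

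Ratios of raw counts within a library do not depend on the normalisation, and those described here were chosen after their values were seen. Per 100 counts of Col1a2 there were 99.4 and 104 counts of Col1a1 in Ppm1bfl/fl and 95 and 98.8 in Ppm1bCKO, lower with no overlap. The exact 95% intervals of Ppm1bfl/fl replicate 1 (94.0 to 105) and Ppm1bCKO replicate 2 (94.9 to 103) did overlap. Col1a1 to Col1a2 was the steadiest of the 45 ratios between the genes, with the highest library 1.09 times the lowest. Either gene alone varied over 3-fold between libraries. Next came Col1a2 to Sparc, at 1.18 times, Cxcl12 to Kitl, at 1.22 times, and Col1a1 to Sparc, at 1.23 times. The median over the 45 ratios was 3.24 times. Spp1 to Ibsp (1.28 times), Lepr to Kitl (1.33 times) and Cxcl12 to Lepr (1.42 times) also lay below it.

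The counts of osteocalcin per count of collagen varied more than the ratio of the collagen chains. In 26 of the 45 ratios the genotypes did not overlap. The 45 ratios reuse the same genes, and 16 of these 26 hold Bglap or Bglap2. Of single tested genes 41.1% did not overlap, and no share over pairs of all genes was computed. Per 100 counts of Col1a1 there were 2.01 counts of Bglap in Ppm1bfl/fl replicate 1 (exact 95% Clopper-Pearson interval 1.49 to 2.66) and 2.02 in replicate 2 (1.69 to 2.39). In Ppm1bCKO there were 3.62 (3.18 to 4.11) and 4.52 (3.93 to 5.18). The Ppm1bfl/fl libraries had nearly the same ratio although their Col1a1 levels were 2.37-fold apart, and both Ppm1bCKO intervals lay above theirs. For Bglap2 the ratios were 1.77 and 2.34 in Ppm1bfl/fl and 2.80 and 4.31 in Ppm1bCKO, and there the intervals of Ppm1bfl/fl replicate 2 (1.99 to 2.75) and Ppm1bCKO replicate 1 (2.42 to 3.24) overlapped. These intervals leave out the spread between mice, and the ratio was given no test between genotypes.

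**Figure D4:**
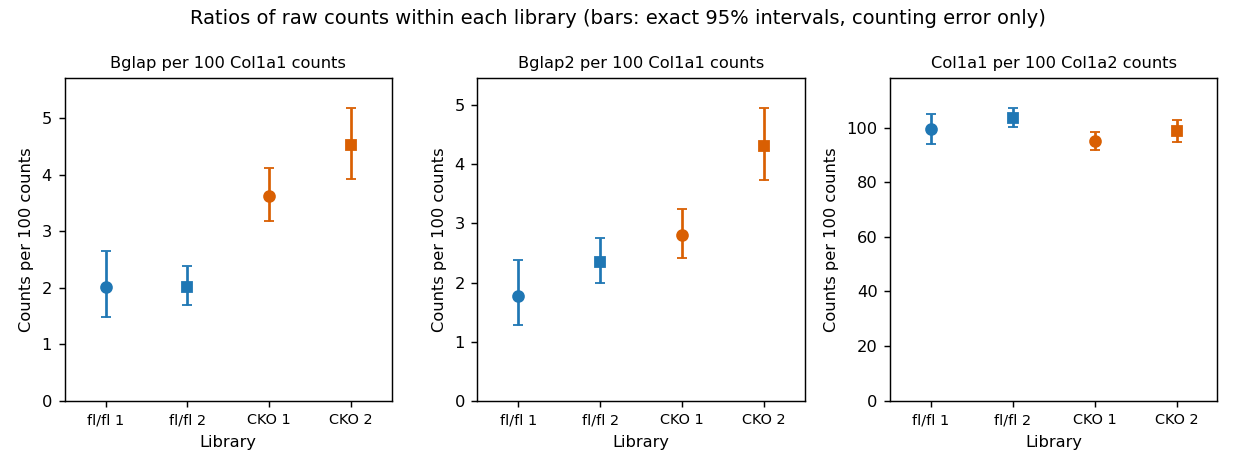
Counts of Bglap and Bglap2 per 100 counts of Col1a1, and of Col1a1 per 100 counts of Col1a2 (vertical axes, each from 0), in each library, with exact 95% intervals that cover counting error only. Bglap per 100 Col1a1 counts is 2.01 and 2.02 in Ppm1bfl/fl and 3.62 and 4.52 in Ppm1bCKO. The 2 collagen chains stay between 95 and 104. There too the genotypes do not overlap, but the intervals of Ppm1bfl/fl replicate 1 and Ppm1bCKO replicate 2 do.

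Genes with a pattern like those described were sought among 12505 genes with average log2 CPM of at least 1 and no count of 0. Predicted genes and clones among them were left out. The nearest were found by the root mean square difference of centred log2 CPM over the 4 libraries. For Col1a1 they were Col1a2 (0.045 log2 units), Dcn (0.10), which encodes the collagen-binding proteoglycan decorin, and Sparc (0.12). For Bglap they were Bglap2 (0.21), Gzma (0.33), a granzyme of cytotoxic lymphocytes, and Cpe (0.34), a carboxypeptidase. For Cxcl12 they were Cysltr2 (0.061), Tbxa2r (0.067), the thromboxane receptor of platelets, and F11r (0.081). Kitl stood 17th and Lepr 81st by the same measure.

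Other genes of bone matrix and of the stromal niche had no call. Of 22 tested genes of bone matrix and mineralisation, 14 leaned higher and 8 lower in Ppm1bCKO; the median log2 fold change was 0.32, and 0 passed in edgeR. At an unadjusted p under 0.05 there were 4. Alpl, the alkaline phosphatase that releases phosphate for mineral, measured 2.33 and 3.15 CPM in the Ppm1bfl/fl libraries against 4.97 and 4.47 CPM in those of Ppm1bCKO (0.78 ± 0.30). Col3a1, the type III collagen gene, had a log2 fold change of 1.23 ± 0.46 and stood at 7.43 CPM in Ppm1bCKO replicate 1 alone and at 1.86 to 2.82 CPM elsewhere. Col13a1, a transmembrane collagen gene, had one of 1.61 ± 0.66 at under 1 CPM. Tnc, the tenascin C gene, had one of -0.86 ± 0.29.

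The 20 genes that process and fold collagen in secreting cells had a median log2 fold change of 0.03, 11 of them positive and 9 negative. At an unadjusted p under 0.05 there were 2, Loxl2, a collagen-crosslinking oxidase (1.22 ± 0.41), and Serpinh1, the collagen chaperone (0.68 ± 0.25), and 0 passed in edgeR. Of 12 osteoblast transcription regulators 7 could be tested and 0 passed, also at an unadjusted p under 0.05. Atf4, a stress-responsive regulator also used by blood cells, had the smallest p (0.38 ± 0.19). Sp7, which encodes the osteoblast factor osterix, ran from 0.752 to 1.47 CPM, and Runx2 from 109 to 142 CPM. Dlx5 ran from 0.0663 to 0.413 CPM, and Msx2 had 0 counts in all libraries. Which cells held the Runx2 transcripts was not tested. Sp7, Runx2, Dlx5 and Msx2 were chosen after their values were seen. Of the 8 osteocyte markers only Mmp14 and Tnfsf11 could be tested, 0 passed, also at an unadjusted p under 0.05, and Sost, the sclerostin gene, had 0 counts in all 4 libraries.

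Of 18 tested niche stromal genes other than Cxcl12, Lepr and Kitl, 15 leaned lower in Ppm1bCKO, and the median log2 fold change was -0.34. None passed in edgeR (0 genes), and 2 had an unadjusted p under 0.05. Igf1, an insulin-like growth factor gene, had a log2 fold change of -0.57 ± 0.23. Ebf3, a transcription factor of these stromal cells, measured 5.67 and 2.72 CPM in the Ppm1bfl/fl libraries against 2.51 and 1.73 CPM in those of Ppm1bCKO (-0.98 ± 0.42). Gas6, a ligand of TAM receptors, measured 18.6 and 9.52 CPM in the Ppm1bfl/fl libraries against 8.80 and 8.26 CPM in those of Ppm1bCKO (-0.72 ± 0.32). For Ebf3 and Gas6, as for Cxcl12, Ppm1bfl/fl replicate 1 stood above the other 3 libraries.

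Ppm1bfl/fl replicate 1 stood apart in several kinds of transcript at once. It was the highest of the 4 libraries for 12 of 18 tested niche stromal genes and for 11 of 12 megakaryocyte and platelet genes, where 26.0% of all tested genes were highest there. Gp1ba, a platelet receptor gene, stood at 46.0 CPM in this library and at 13.7 to 24.0 CPM in the others, and Vwf at 111 CPM against 45.7 to 57.4 CPM. Stem and progenitor genes were highest there in 8 of 10 cases and osteoclast genes in 5 of 7. Bone matrix and mineralisation genes were lowest there in 10 of 22 cases, where 24.9% of all tested genes were lowest. The summed level of the 20 niche stromal genes was 610 CPM in this library and 453 to 484 CPM in the others. A large part of each sum came from Igfbp4 alone, at 286 CPM in this library and 234 to 248 CPM in the others. The part of these other cell types in the values of the 10 genes was not tested.

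**Figure D5:**
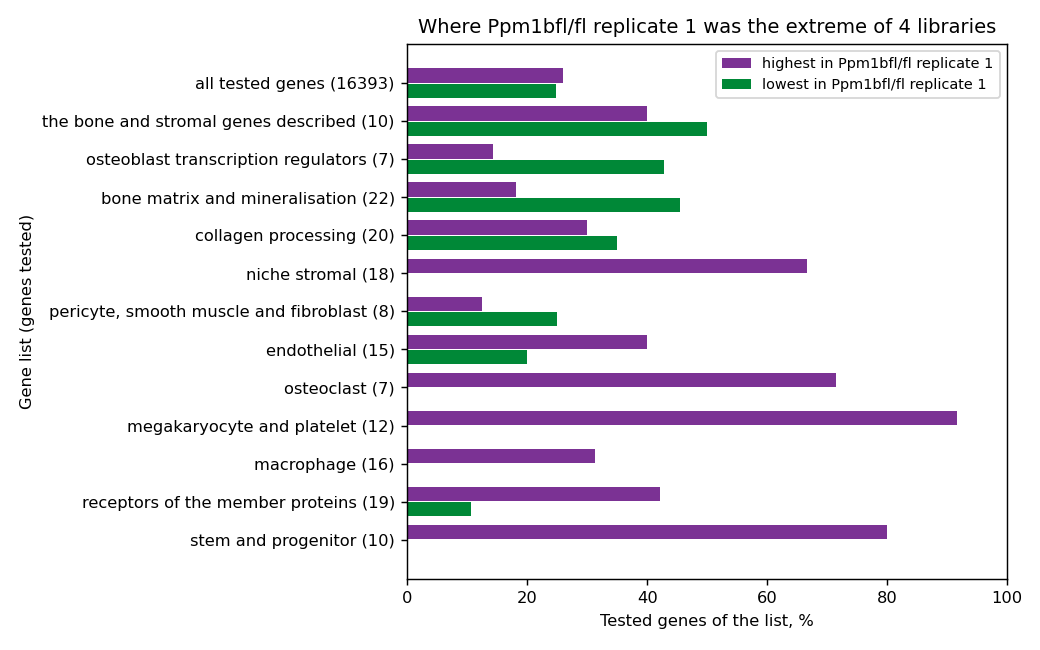
Percentage of the tested genes of each list (horizontal axis; number of tested genes in brackets; lists with under 5 tested genes left out) for which Ppm1bfl/fl replicate 1 was the highest (purple) or the lowest (green) of the 4 libraries. Niche stromal genes are highest there in 66.7% and megakaryocyte and platelet genes in 91.7% of cases, against 26.0% of all tested genes.

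Markers of the other cells that could hold these transcripts had 0 calls in edgeR. The cartilage genes Acan and Sox9 and the adipocyte genes Plin1, Cidec and Lep lay at 0 to 6 counts, but other genes of these lists were detected. Col2a1, the cartilage collagen gene, measured 1.65 and 2.42 CPM in Ppm1bfl/fl and 2.81 and 4.55 CPM in Ppm1bCKO, with no overlap (0.85 ± 0.37). It was the only positive gene of 3 tested cartilage genes, whose median log2 fold change was -0.066. The other 2, Col10a1 (-0.089) and Comp (-0.066), were negative and overlapped. Of 3 tested adipocyte genes 1 was positive and 2 were negative, with a median log2 fold change of -0.23. Adipoq, the adiponectin gene, ran from 1.79 to 5.56 CPM with overlap. Fabp4 and Pparg are also expressed by other cells. Fabp4 measured 9.73 and 7.96 CPM in Ppm1bfl/fl and 3.87 and 6.32 CPM in Ppm1bCKO, lower with no overlap (-0.79 ± 0.30). Pparg ran from 4.09 to 7.0 CPM with overlap. Acan, Sox9, Plin1, Cidec and Lep were chosen after their values were seen. Of 15 tested endothelial genes 8 were positive, with Cdh5, the endothelial cadherin gene, measuring 3.01 and 2.62 CPM in the Ppm1bfl/fl libraries against 4.84 and 5.94 CPM in those of Ppm1bCKO (0.94 ± 0.29, edgeR adjusted p = 0.566). Of the 7 tested osteoclast genes 7 were negative with a median log2 fold change of -0.24, and Atp6v0d2, a proton pump subunit, had one of -1.98 ± 0.71. All 16 macrophage genes were negative, with a median of -0.56 and a summed level of 1031 and 1069 CPM in Ppm1bfl/fl against 631 and 759 CPM in Ppm1bCKO, and DESeq2 called 5 of them. Spp1, which macrophages can express, stood at -0.02 on the log2 fold change scale; how it differs from these genes was not tested. At an unadjusted p under 0.05 edgeR counted 8 macrophage genes, 1 endothelial, 1 osteoclast, 1 adipocyte, 1 pericyte, smooth muscle and fibroblast, and 0 cartilage or megakaryocyte and platelet genes. In all the lists named beside the 10 genes, DESeq2 called 0 genes other than the 5, and limma-voom called 0.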

How the data were processed

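Bulk RNA-seq of 4 bone marrow libraries was analysed from the authors' deposited table of raw whole-number counts per gene, which also gives exonic lengths. Build mm10 is named, per the submitters' processing notes, along with featureCounts 2.0.1, HISAT2 2.2.0 and Trim Galore 0.6.7. The sources used here do not give the annotation, the strand setting or how multiply matching reads were counted. Of 55399 identifiers, 55139 matched a GENCODE symbol, and 37 mitochondrial genes had 0 reads.

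The main test was that of edgeR 4.0.16 under R 4.3.3 (TMM, filterByExpr with a minimum count of 10 and total of 15, robust quasi-likelihood test, no covariates), with Benjamini-Hochberg adjustment over 16393 genes. CPM are TMM-normalised. Genes and lists were chosen with earlier results of these data known. Named were the 10 genes, Ppm1b, up to 4 genes of each other list with the smallest p, the 3 nearest patterns, and genes stated as chosen afterwards. Alternatives were DESeq2 1.42.0 and its size factors, limma-voom 3.58.1, other filters, a replicate block, summed osteocalcin genes and each library left out.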

Additional observations from a re-analysis of the deposited data

How the results depend on the processing

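Over 101 fold changes of the 10 genes under the alternatives, 87 kept their direction and their side of the threshold, 10 passed it and 4 reversed. The 4 that reversed did so without Ppm1bfl/fl replicate 1: Spp1 (0.22), Cxcl12 (0.12), Lepr (0.19) and Kitl (0.0042). Without Ppm1bfl/fl replicate 2 these were -0.24, -0.88, -0.92 and -0.70, so the sign rested on 1 library. The number of the 10 genes called was 0 with all libraries and became 1 with DESeq2, 3 with no low-count filter and 0 to 5 when a library was left out. Their median log2 fold change ran from 0.21 to 0.72 when a library was left out. Over all tested genes the 61 calls became 199 with DESeq2, 311 with no low-count filter and 94 to 3336 when a library was left out, the most without Ppm1bCKO replicate 1. The cause was not tested.

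The fit with the replicate number as a replicate block called 207 genes over all, 1 of the 10 genes (Bglap, 1.74, edgeR adjusted p = 0.0078) and 4 macrophage genes. The labels do not say that a number marks a shared mouse or day. The replicate differences of the genotypes correlated at 0.064 across genes. As a single value over all tested genes, it cannot show whether same-numbered libraries shared a day or batch.

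Among the other lists, DESeq2 called 5 macrophage genes. With no low-count filter edgeR called 5 macrophage genes and 1 each of bone matrix and mineralisation, of pericyte, smooth muscle and fibroblast, and of osteoclast genes. When a library was left out, the calls ran from 0 to 1 for osteoblast transcription regulators, osteocyte, niche stromal, pericyte, smooth muscle and fibroblast, osteoclast and cartilage genes. They ran from 0 to 2 for bone matrix and mineralisation, endothelial, megakaryocyte and platelet, and stem and progenitor genes, from 0 to 3 for collagen processing, from 0 to 4 for receptor genes and from 1 to 7 for macrophage genes. The highest count came without Ppm1bCKO replicate 1, where 19.4% of all tested genes were called, for each list except megakaryocyte and platelet genes (without Ppm1bfl/fl replicate 2), and for osteoclast genes also without Ppm1bfl/fl replicate 2. Bglap rests on 50 counts in its lowest library, which limits its precision there to 1.39 to 2.48 CPM.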
